A study of Lactuca sativa with 53 samples.

Results

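A set of 150 lettuce (Lactuca sativa) genes that stood higher after 48 h of salt and lower after 48 h of heat than in untreated plants was described across salt, heat, drought and cold. They were chosen by their measured values. In the cultivar Salinas, the mean log2(scaled CPM + 0.5) of a treatment minus that of the 0 h control had to be 1 or more at 48 h of salt and -1 or less at 48 h of heat, where CPM is counts per 1000000 reads. Of 23292 genes listed, 222 met both limits. After 4 AP2/ERF transcription factor genes of the study's own list were left out, 218 remained, and the 150 with the largest value of the smaller of the salt rise and the heat fall were kept. Each gene is cited here by its rank in that order. The differences of salt and heat from the control are therefore descriptions with no test, and tests are given only between libraries or cultivars that the selection did not use, or with the shared control named.

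Plants were grown at 20 °C and were 18 days old when the treatments began. The salt plants received 250 mM NaCl, the heat plants were kept at 34 °C and the drought plants had water withheld, and each treatment was sampled in Salinas after 5, 24 and 48 h, with untreated plants at 0 h as the control (3 libraries in each of 10 groups). Cold at 4 °C was sampled after 4 h, 24 h and 7 d in the cultivars PI 284702 and UC96US23, each with its own 0 h plants (3 libraries a group, but 2 for PI 284702 at 0 h). Per the methods, light was dimmer during the stresses than during growth, and dimmest in cold. Each comparison with 0 h thus also holds a change of light and a later age. Cold at 4 h was also sampled at another time of day than 0 h. These cannot be told apart from the treatment in such comparisons. The sample labels call the tissue aerial and the methods call it leaf. None of the gene identifiers was paired with a gene name in the tables used here, so the products of the 150 genes and the markers of leaf tissue are not given. In these bulk samples, a change in the cells that make up the tissue and a change in the RNA of each cell cannot be told apart.

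As background, salt in the root zone lowers the water a plant can take up and loads its cells with sodium, and the hormone abscisic acid drives much of the gene response to both salt and drought. Heat acts largely through heat shock factors, which switch on chaperone genes, while many growth and metabolism genes are lowered. Cold works in part through the CBF factors, and its targets partly overlap those of salt and drought. A gene raised by salt and lowered by heat is thus placed on opposite sides of 2 stresses that often occur together in the field.

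Each Salinas library held between 19144717 and 29521313 reads, with a median of 23710600, and each library of the other cultivars between 17570370 and 27896716. The Salinas values are CPM on a library size that the authors scaled, and they do not sum to 1000000. The sums were between 1207460 and 1273640 in the salt 48 h libraries, between 815104 and 824853 in the heat 48 h libraries and between 845077 and 858082 in the control libraries. With every library brought to 1000000 instead, the median of all genes at 48 h of salt moved to -0.51 on the log2 scale, and 130 of the 150 genes still met both limits. The values carry no correction for gene length, so levels are compared between groups and not between genes.

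The chosen values themselves covered a wide range. The gene ranked first had a log2 difference from the control of 3.34 at 48 h of salt and -4.21 at 48 h of heat. The last gene inside the list had 1.31 for salt and -1.14 for heat (rank value 1.137), and the first gene outside it had 2.71 for salt and -1.14 for heat (rank value 1.136). In 5 of the 150 genes, no heat 48 h library held more than 3 reads, so the size of their heat difference depends on the 0.5 that was added. With 2 added instead of 0.5, 97 of the 150 still met both limits.

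**Figure D1:**
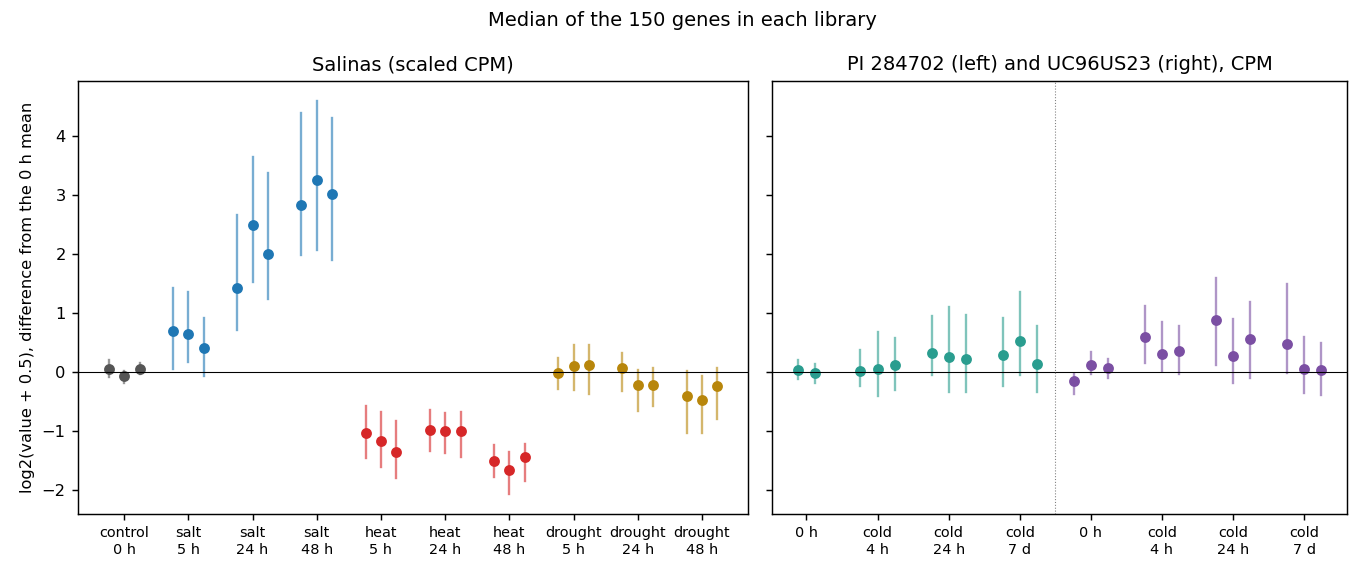
Median over the 150 genes of the log2 difference from the mean of the 0 h libraries of the same cultivar, one point per library, with bars from the lower to the upper quartile over genes. Salt libraries sit above 0 at each time and climb to medians between 2.83 and 3.26 at 48 h, and heat libraries sit below 0 at each time. The salt and heat libraries at 48 h are those the selection used. Drought libraries have medians between -0.49 and 0.12 and cold libraries between 0.01 and 0.87.

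Along the salt series, the 150 genes stood a median of 0.51 above the control after 5 h, 1.99 after 24 h and 3.03 after 48 h. A difference of 1 or more was reached by 50 of them at 5 h and by 121 at 24 h, against 4.92% and 15.4% of all genes tested, and by all 150 at 48 h by selection, against 21.1%. The 48 h value was above the 24 h value in 141 genes, which choosing genes by a high 48 h value favours. The salt 24 h libraries were the most spread, with medians of the 150 genes of 1.43, 1.99 and 2.49. These values share the control libraries with the selection and are a description.

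Heat took another course. The 150 genes had a median difference of -1.21 after 5 h, -1.01 after 24 h and -1.51 after 48 h, and -1 or less was reached by 93, 77 and 150 genes, against 2.52%, 5.67% and 8.45% of all genes tested. Thus 93 genes were past this limit at the first heat harvest and 50 at the first salt harvest. The 5 h plants were harvested at another time of day than the 0 h control, and the part of the clock in the 5 h values was not tested. By the first time at which each limit was passed, the most common pattern was heat at 5 h with salt at 24 h, in 48 genes. In 35 genes both limits were passed at 5 h, and in 12 genes salt was past its limit at 5 h and heat first at 48 h. Every one of the 150 genes passes both limits by 48 h through the selection. These patterns are thus a description, with no share over all genes beside them. A gene past a limit at one time need not stay past it, as the 93 and 77 genes in heat show.

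**Figure D2:**
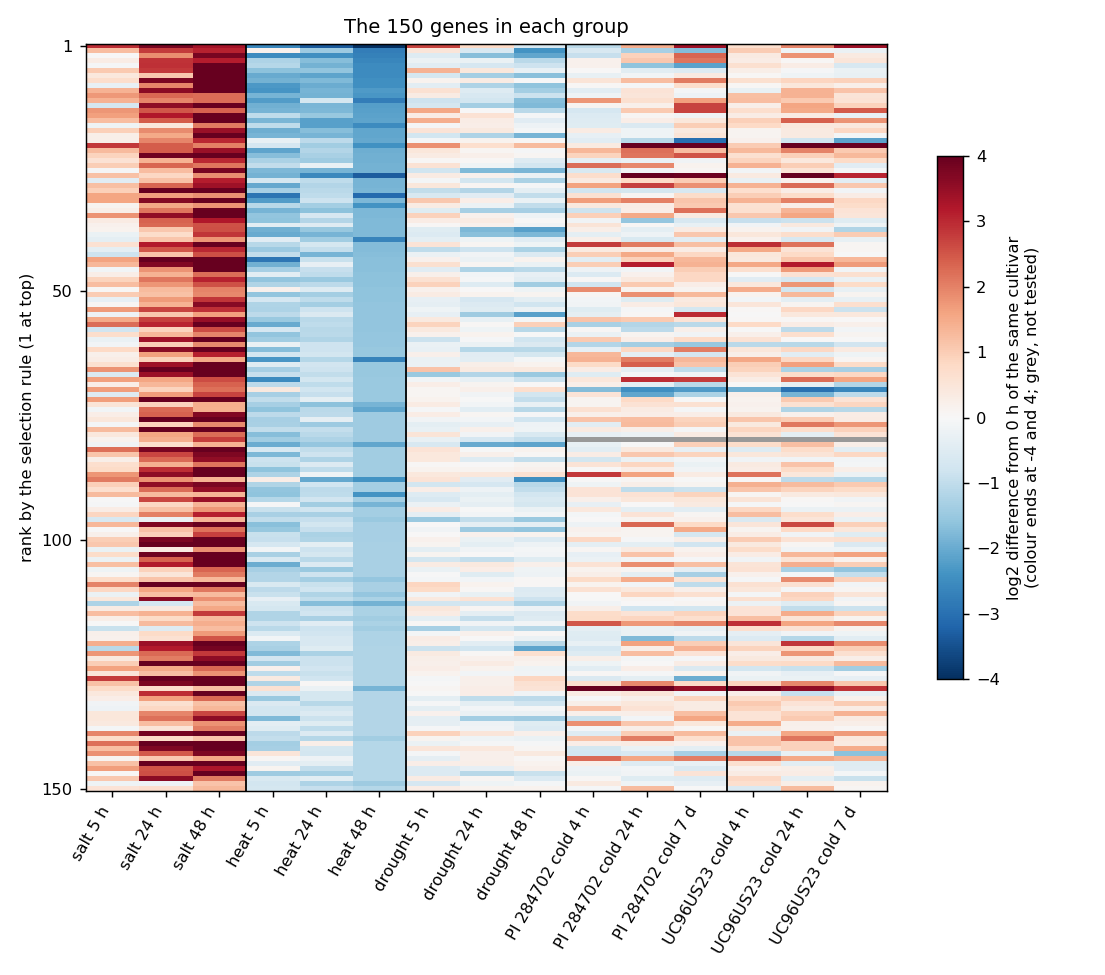
Heat map of the log2 difference from the 0 h libraries of the same cultivar for the 150 genes (rows, by rank) in each treatment and time (columns), with colour ends at -4 and 4 and grey for the gene ranked 80, which was too low to be tested in the cold table. The salt columns deepen from 5 h to 48 h, the time used to choose the genes, while the cold columns hold single strong rows in both directions.

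The gene ranked first, Lsat_1_v5_gn_7_93760.1 on linkage group 7, shows both arms in the values of single libraries. It had 259, 222 and 242 scaled CPM at 5 h of salt, 353, 382 and 582 at 24 h, and 290, 311 and 336 at 48 h. At 5 h of heat it had 3.56, 4.12 and 6.26 scaled CPM, and at 48 h 1.55, 0.762 and 1.32. The control libraries had 47.0, 17.4 and 34.2 scaled CPM, and no salt or heat library overlapped them. At 48 h the selection favours this, since it ranked the gene first on those libraries and the control. The 5 h and 24 h values share the control with the selection. Against heat at the same time, its log2 difference in salt was 5.58 ± 0.43 (SE) at 5 h and 7.14 ± 0.43 at 24 h, with adjusted p = 1.5e-10 and 4.6e-13 by limma (3 libraries a group).

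How far the salt and heat arms lay apart in libraries the selection did not use was asked at 24 h and 5 h, by setting salt against heat directly, which does not give the sign of either arm. At 24 h, 147 of the 150 genes were called higher in salt than in heat (limma over all 23231 genes tested, where a call needs a log2 difference of at least 1 in size and an adjusted p no higher than 0.01), against 13.6% of all genes. The median difference over the 150 was 3.31, beside -0.04 over all genes. None was called lower by limma or by edgeR or was lower at an unadjusted p under 0.05, while 11.1% of all genes were called lower. The 3 genes not called were rank 130 (0.93 ± 0.10), rank 96 (0.67 ± 0.30) and rank 118 (0.29 ± 0.31). The first of these had a clear but smaller difference, with adjusted p = 1.0e-08.

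At 5 h, 110 genes were called higher in salt than in heat, against 7.44% of all genes, with a median difference of 1.76. None was called lower by limma or by edgeR, against 5.89% of all genes, and 1 was lower at an unadjusted p under 0.05. In each of these comparisons the salt and heat plants had been treated for the same number of hours. With every library brought to 1000000 reads, 141 of the 150 genes were called higher in salt than in heat at 24 h. Over all 23231 genes, that scaling called 2435 higher and 4309 lower at 24 h, in place of 3154 and 2568. Of these calls over all genes, 36.1% were thus higher, in place of 55.1%.

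Each arm was then set against drought at the same time, which leaves out the control. Drought itself moved some of these genes, so a difference from drought is not a difference from untreated plants. At 5 h of drought 7 of the 150 stood 1 or more above the control and 4 as far below it. The shares of all genes were 0.745% and 0.452%. At 24 h these counts were 0 and 19, against 0.336% and 0.413%. At 24 h, 130 of the 150 genes were called higher in salt than in drought, against 14.9% of all genes, with a median of 2.39. None was called lower by limma or edgeR or was lower at an unadjusted p under 0.05, while 13.9% of all genes were called lower. The largest difference was in the gene ranked 141, which had 158, 268 and 262 scaled CPM at 24 h of salt, against 5.37, 3.76 and 4.35 at 24 h of drought (log2 difference 5.50 ± 0.31, adjusted p = 1.3e-13 by limma). With every library brought to 1000000 reads, 123 of the 150 were called, with 12.4% of all genes higher and 18.6% lower. The salt and drought libraries of the gene ranked 141 did not overlap, and in the heat 24 h libraries it had 9.37, 4.64 and 3.79, which overlapped drought. For this gene heat at 24 h stood 0.23 above the control on the log2 scale.

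The heat arm was smaller at 24 h. In heat, 50 genes were called lower than in drought, against 4.25% of all genes, with a median of -0.80, and none was called higher, against 4.25% likewise (1 gene was higher at an unadjusted p under 0.05, and none by edgeR). Without drought 24 h library 3, 1 gene was called higher. The largest fall was again in the gene ranked first, at -4.13 ± 0.43, followed by rank 27 at -2.76 ± 0.21. The gene ranked 27 had 4.78, 5.68 and 5.32 scaled CPM at 24 h of heat, against 39.0, 39.3 and 37.4 at 24 h of drought, with no overlap. With a pseudocount of 2 in place of 0.5, the count of genes lower in heat was 33, and over all genes it was 572 in place of 987.

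At 5 h the order of the arms was turned. Heat was called lower than drought in 81 genes, against 3.31% of all genes, with a median of -1.13. None was called higher by limma or edgeR, against 3.85% of all genes, and 3 were higher at an unadjusted p under 0.05. Salt was called higher than drought in 28 genes, against 3.46% of all genes, with a median of 0.55, and lower in 1 gene, against 0.654%. That gene was rank 58, with 5.53, 6.61 and 4.43 scaled CPM in salt, against 11.1, 14.2 and 12.9 in drought (-1.15 ± 0.23). The same gene had 66.6, 74.5 and 46.4 scaled CPM at 48 h of salt.

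Counted gene by gene at 5 h, 18 genes were called in both arms, against 0.392% of all genes, 63 were lower in heat alone, against 2.92%, and 10 were higher in salt alone, against 3.07%. At 24 h, 44 were called in both arms, against 0.263% of all genes, 6 were lower in heat alone, against 3.99%, and 86 were higher in salt alone, against 14.6%. Heat was called lower than drought at both times in 35 genes, against 1.02% of all genes, and salt higher than drought at both times in 27, against 2.99%. The difference between times was not tested gene by gene.

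**Figure D3:**
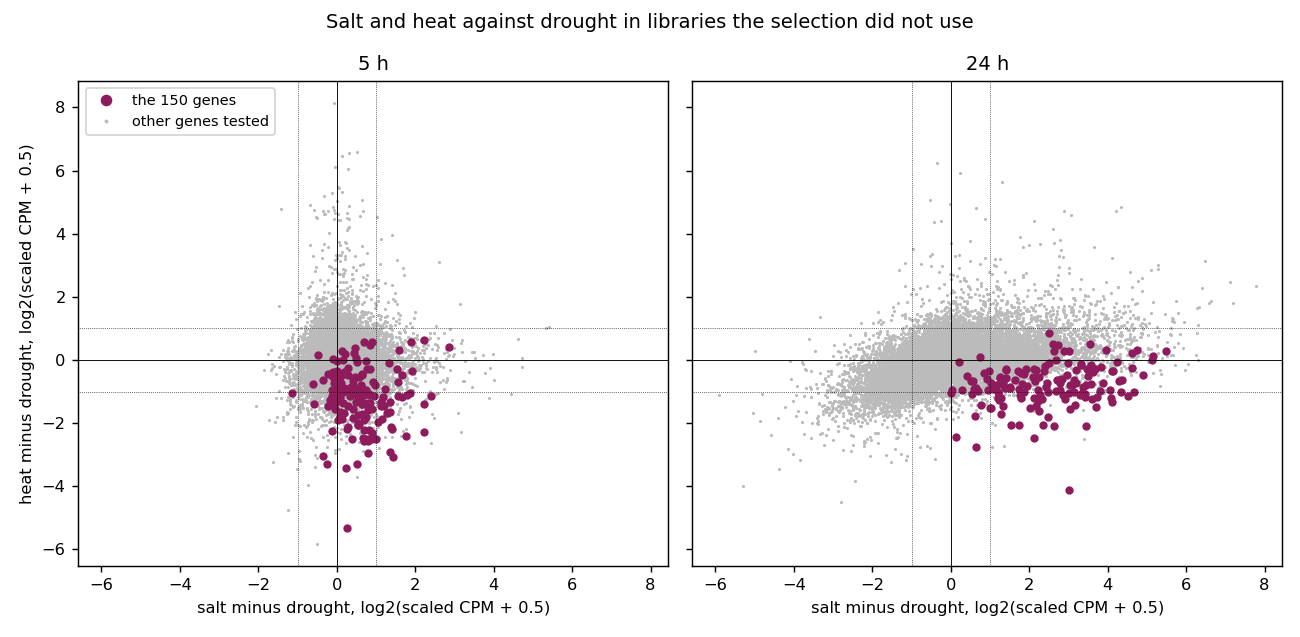
Each gene's log2 difference of salt from drought (horizontal axis) and of heat from drought (vertical axis) at 5 h and at 24 h, in log2(scaled CPM + 0.5), with the 150 genes in purple over all other genes tested in grey and dotted lines at -1 and 1. The purple points lie mainly below 0 on the heat axis at 5 h, with a median of -1.13, and spread to the right along the salt axis at 24 h, with a median of 2.39.

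Drought was compared with the 0 h control next. These tests share the control libraries with the selection. At 5 h, 4 genes rose, against 0.542% of all genes, and 2 fell, against 0.237%. The 4 were rank 1 (2.69 ± 0.43), rank 21 (1.84 ± 0.37), rank 14 (1.56 ± 0.32) and rank 6 (1.39 ± 0.32). The gene ranked first had 155, 245 and 208 scaled CPM at 5 h of drought, against 47.0, 17.4 and 34.2 in the control, and by 48 h of drought it had 8.41, 17.7 and 46.4, a range that overlapped the control. The 2 that fell were rank 96 (-1.48 ± 0.30) and rank 118 (-1.33 ± 0.31), both low genes. Rank 96 had 0.196, 0.183 and 0.270 scaled CPM at 5 h of drought, against 1.03, 1.41 and 2.24 in the control. Without any 1 of control library 1, 2 or 3 or drought 5 h library 2 or 3, 1 gene rose, and without any 1 of the 6 libraries compared, 1 gene or none fell.

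At 24 h of drought, 5 genes fell, against 0.099% of all genes. They were ranks 81 (-2.03 ± 0.31), 38 (-1.80 ± 0.32), 98 (-1.45 ± 0.27), 55 (-1.43 ± 0.22) and 136 (-1.35 ± 0.26). None rose by limma, against 0.0947% of all genes, and 2 were higher at an unadjusted p under 0.05. The fall was called in 1 gene without control library 1 or drought 24 h library 1, in 2 genes without control library 2 or drought 24 h library 2, and in none without control library 3. With edgeR it was called in 3 genes, and none was called higher, against 14 lower and 21 higher over all genes.

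At 48 h of drought, 27 of the 150 genes fell, against 1.33% of all genes, and none rose, against 1.89%. The median difference from the control was -0.36, beside 0.01 over all genes, and 117 of the 150 genes were below 0. The count was 17 without control library 1 and 16 without control library 3, and 11 with a pseudocount of 2. Over all genes that pseudocount called 155 lower, in place of 309. At an unadjusted p under 0.05, 6 of the 150 stood higher. With edgeR 1 gene was called higher, against 526 over all genes, as it was by limma without drought 48 h library 1. A comparison chosen after seeing the data, drought at 48 h against drought at 24 h, avoids the control libraries. It called none of the 150 lower (31 at an unadjusted p under 0.05, and none by edgeR), against 0.0387% of all genes, and none higher (4 unadjusted, and none by edgeR), against 0.753%. Without drought 24 h library 2 or 3, or drought 48 h library 1 or 3, 1 gene was called lower there. The fall was thus called against the control and not against drought at 24 h.

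The genes that fell at 48 h of drought included some of the highest ranked. The gene ranked 2 had 4.85, 4.38 and 10.6 scaled CPM at 48 h of drought, against 48.1, 23.9 and 34.1 in the control (log2 difference -2.38 ± 0.45). The gene ranked 3 had 10.7, 12.9 and 8.31, against 39.4, 45.9 and 54.2 in the control (-2.09 ± 0.36). The gene ranked 55 had 22.2, 29.6 and 30.3, against 117, 110 and 143 in the control (-2.16 ± 0.22). In each of these the drought and control libraries did not overlap. The largest fitted fall, -2.45 in the gene ranked 88, was not called. It had 0.279, 0.420 and 5.73 scaled CPM at 48 h of drought, against 22.2, 2.88 and 9.03 in the control, and the groups overlapped. On the other side, rank 21 had the largest positive difference, 1.27, which was not called either.

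**Figure D4:**
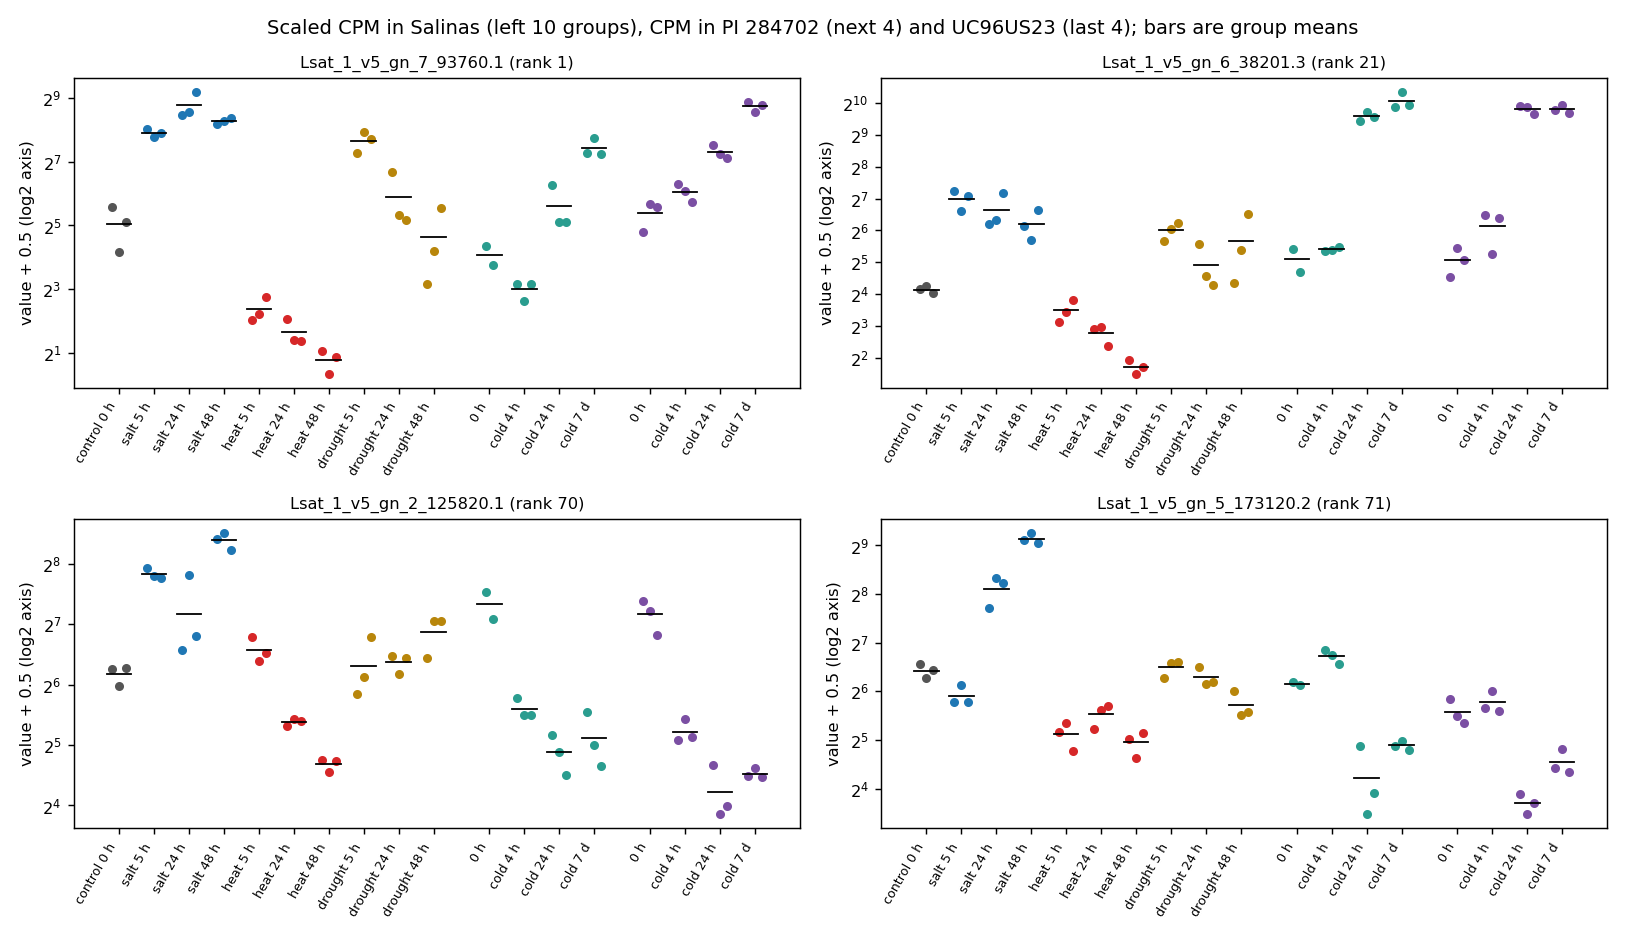
Values of 4 of the genes in every library (points, plus 0.5, on a log2 axis) with group means as bars, in scaled CPM for Salinas and CPM for the cold series of PI 284702 and UC96US23. The genes ranked 1 and 21 are high in late cold, and the genes ranked 70 and 71 are low there, while all 4 are high at 48 h of salt and low at 48 h of heat.

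Cold was measured in the other cultivars, so it shares no library with the selection. All 150 genes were listed there and 149 were tested, since the gene ranked 80 was too low. In PI 284702, 16 genes rose at 4 h, 32 at 24 h and 29 at 7 d, against 3.41%, 5.9% and 6.01% of the 23443 genes tested. In UC96US23, 24, 35 and 16 rose at the same times, against 4.3%, 6.23% and 4.97%. Thus at 24 h 21.5% of the genes tested rose in PI 284702 and 23.5% in UC96US23.

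Falls in cold were fewer. In PI 284702, 2, 8 and 11 genes fell at 4 h, 24 h and 7 d, against 0.704%, 3.83% and 3.89% of all genes, and in UC96US23 2, 8 and 11 fell, against 2.33%, 5.95% and 4.11%. These were 1.34%, 5.37% and 7.38% of the 149 genes in each cultivar. In 12 of the 150 genes no PI 284702 0 h library held more than 3 reads, and in 5 no UC96US23 0 h library did, so that a fall could not be shown for them there. The medians over the 149 genes were small, 0.07, 0.23 and 0.34 in PI 284702 and 0.46, 0.56 and 0.20 in UC96US23. The median of all genes at 7 d was itself at 0.15 in PI 284702 and at 0.09 in UC96US23, and with median-centred libraries it was at -0.07 and -0.05. The split of all genes at 7 d turned with that scaling, to 3.3% higher and 6.47% lower in PI 284702 and 3.34% and 5.87% in UC96US23, where 20 of the 149 genes rose and 12 fell in PI 284702 and 13 rose and 14 fell in UC96US23. With edgeR it turned likewise, to 4.25% and 6.46% in PI 284702 and 4.27% and 6.62% in UC96US23, where 22 rose and 12 fell in PI 284702 and 16 rose and 14 fell in UC96US23. At 24 h in PI 284702 the centred split was 5.0% higher and 5.16% lower, with 26 genes that rose and 9 that fell. At 24 h the fall was called in 5 genes without UC96US23 24 h library 2, and at 7 d in 7 genes without UC96US23 0 h library 1 or 7 d library 3. At 4 h it was called in 1 gene without PI 284702 4 h library 2 and in 1 gene without UC96US23 4 h library 2. A fit on the 2 groups alone gave 18 genes that rose at 24 h in PI 284702, in place of 32. Over all 23443 genes that fit called 1073 higher, in place of 1384.

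Calls in both cultivars were the stricter count. At 4 h, 13 genes rose in both and 2 fell in both, against 2.44% and 0.367% of all genes. At 24 h, 22 rose and 5 fell, against 4.3% and 2.53%, and at 7 d 10 rose and 4 fell, against 3.21% and 2.12%. No gene was called in opposite directions at one time, and the share over all genes was not counted. The responses of the 2 cultivars had Pearson's r of 0.71, 0.83 and 0.77 over all genes at 4 h, 24 h and 7 d. Over the 149 genes r was 0.70, 0.80 and 0.76. Over the 3 times, 31 genes rose in both cultivars at 1 or more times, against 6.96% of all genes, and 7 fell, against 3.89%. No gene of the 149 did both, a count that was not made over all genes.

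**Figure D5:**
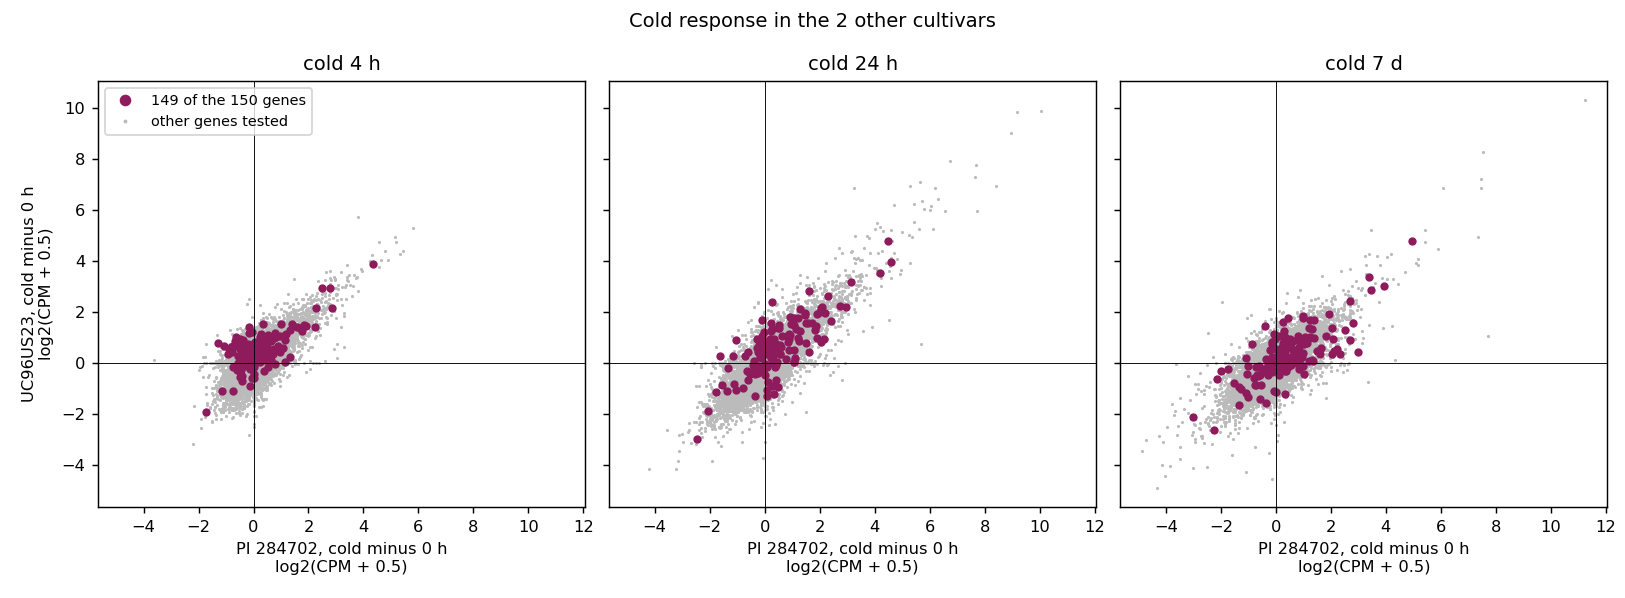
Each gene's log2 difference of cold from 0 h in PI 284702 (horizontal axis) and in UC96US23 (vertical axis) at 4 h, 24 h and 7 d, in log2(CPM + 0.5), with 149 of the 150 genes in purple over all other genes tested in grey. The purple points run along the diagonal on both sides of 0, with Pearson's r of 0.80 at 24 h over the 149 genes and 0.83 over all genes tested. These genes share the same libraries and are not independent.

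Several of the genes rose strongly in cold. Lsat_1_v5_gn_6_38201.3 on linkage group 6, ranked 21 and chosen after its values were seen, had 690, 837 and 759 CPM at 24 h of cold in PI 284702, against 42.6 and 25.6 at 0 h. In UC96US23 it had 949, 924 and 810 CPM at 24 h of cold, against 22.9, 42.9 and 33.4 at 0 h. No cold 24 h library overlapped the 0 h libraries. The log2 differences were 4.50 ± 0.27 in PI 284702 and 4.78 ± 0.24 in UC96US23 (adjusted p = 1.6e-11 and 6.6e-13 by limma). At 4 h it had 40.6, 41.7 and 44.1 CPM in PI 284702, within or near the 0 h range. In UC96US23 it had 88.6, 37.8 and 82.5 CPM at 4 h, which overlapped 0 h, and the difference of 1.02 ± 0.24 was just past the limit of 1. That call was lost without UC96US23 0 h library 1 or 4 h library 1 or 3. At 7 d the difference was 4.97 ± 0.27 there and 4.79 ± 0.24 in UC96US23. In Salinas this gene had 69.3, 51.9 and 98.8 scaled CPM at 48 h of salt and 3.34, 2.36 and 2.78 at 48 h of heat, against 17.3, 18.6 and 15.9 in the control.

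The gene ranked 130 had higher differences at 4 h than at 7 d. It had 496, 497 and 485 CPM at 4 h of cold in PI 284702, against 23.8 and 23.2 at 0 h, and 640, 527 and 622 in UC96US23, against 23.9, 53.6 and 46.4 at 0 h. Its differences were 4.36 ± 0.19 and 3.91 ± 0.17 at 4 h, the largest rises of the 149 genes at that time in both cultivars, and 3.47 ± 0.19 and 2.88 ± 0.17 at 7 d. In Salinas the same gene had 74.9, 87.3 and 79.2 scaled CPM at 48 h of salt, against 32.1, 37.4 and 35.3 in the control.

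The gene ranked 27, which was lower at both 5 h and 24 h of heat than of drought, had 86.9, 158 and 124 CPM at 24 h of cold in PI 284702, against 3.29 and 6.05 at 0 h, and 117, 76.5 and 89.1 in UC96US23, against 6.07, 4.88 and 5.33 at 0 h. Its differences at 24 h were 4.59 ± 0.26 and 3.98 ± 0.23. At 4 h it was not called in either cultivar. The gene ranked first was late as well. It had 156, 214 and 153 CPM at 7 d in PI 284702, against 19.8 and 13.1 at 0 h, and 469, 383 and 441 in UC96US23, against 27.5, 50.7 and 47.0 at 0 h, with differences of 3.38 ± 0.29 and 3.40 ± 0.26. Its rise at 24 h in PI 284702 (1.45 ± 0.29) was not called without PI 284702 0 h library 2, where the difference was 1.16.

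Some of the 150 genes fell in cold. The largest fall at 24 h in both cultivars was in Lsat_1_v5_gn_2_125820.1 on linkage group 2, ranked 70. It had 35.4, 29.2 and 22.1 CPM at 24 h of cold in PI 284702, against 185 and 136 at 0 h, and 24.9, 14.0 and 15.4 in UC96US23, against 168, 149 and 113 at 0 h. The differences were -2.46 ± 0.24 and -2.98 ± 0.22 (adjusted p = 4.2e-08 and 2.5e-10 by limma), and the gene had already fallen at 4 h in both (-1.72 ± 0.24 and -1.93 ± 0.22). In Salinas it was already high at 5 h of salt, with 245, 223 and 217 scaled CPM, against 57.0, 69.7 and 110 at 5 h of drought (1.58 ± 0.23). Its salt libraries were between 95.0 and 225 scaled CPM at 24 h, and highest at 48 h, between 302 and 364.

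The next was Lsat_1_v5_gn_5_173120.2 on linkage group 5, ranked 71. It had 28.9, 10.6 and 14.6 CPM at 24 h of cold in PI 284702, against 72.1 and 69.8 at 0 h, and 14.4, 10.6 and 12.6 in UC96US23, against 56.9, 44.8 and 40.1 at 0 h, with differences of -2.07 ± 0.25 and -1.87 ± 0.23. The call in PI 284702 was lost with the 2 groups alone in the fit (adjusted p = 0.020 by limma). At 4 h it had 114, 107 and 94.2 CPM in PI 284702, above both 0 h libraries, and was not called. Its fall at 7 d in UC96US23 (-1.04 ± 0.23) was just past the limit of 1, and was between -0.99 and -0.90 without UC96US23 0 h library 1 or 7 d library 1 or 3. The largest fall at 7 d in PI 284702 was in the gene ranked 20, which had 1.27, 0.565 and 1.53 CPM there, against 13.4 and 11.1 at 0 h (-3.02 ± 0.26). In UC96US23 it had 2.85, 2.78 and 2.72 CPM at 7 d, against 12.1, 15.8 and 13.8 at 0 h (-2.13 ± 0.23).

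The cold response of UC96US23 was set against that of PI 284702 by testing the difference of the 2 responses. At 4 h none of the 149 genes was called (26 higher and 7 lower in UC96US23 at an unadjusted p under 0.05, and none by edgeR), against 0.0384% and 0.0981% of all genes. At 24 h none was called higher, against 0.277%, and the gene ranked 74 was called lower, against 0.384%. At 7 d none was called higher, against 0.264%, and 2 were called lower, against 0.41%. Higher at an unadjusted p under 0.05 were 16 genes at 24 h and 14 at 7 d, and edgeR called none higher at either time. The genes called lower were ranks 74 (-1.54 ± 0.29) at 24 h and 55 (-2.56 ± 0.29) and 4 (-1.65 ± 0.32) at 7 d. Leaving out single libraries changed these counts. At 24 h, no gene was called without PI 284702 0 h library 2, PI 284702 24 h library 2, UC96US23 0 h library 2 or 3, or UC96US23 24 h library 1 or 2, and 2 genes were called without UC96US23 0 h library 1. At 7 d, 1 gene was called lower without PI 284702 0 h library 1 or 2, PI 284702 7 d library 2, UC96US23 0 h library 2 or 3, or any 1 of the 3 UC96US23 7 d libraries, and 1 was called higher without PI 284702 7 d library 1.

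By the linkage group in the identifiers, the 150 genes were spread over groups 1 to 9, with between 11 genes on group 6 and 22 on group 2. As a share of the genes listed per group, this was between 0.464% on group 4 and 0.87% on group 2, around 0.644% over all genes. None of the 509 genes whose identifier gives group 0 was among them. In 6 places, 2 of the 150 genes were next to each other among the genes listed, in the order of identifiers, 12 genes in all. Genes that are not listed may lie between them. These 12 were 8% of the 150 genes, and the 150 were 0.644% of the genes listed. Whether this is more than a random draw of genes would give was not tested. One of these pairs, on group 7, was the gene ranked first and the gene ranked 14, which were also among the 4 genes that rose at 5 h of drought. Another, on group 8, was ranks 8 and 23, with log2 differences of 5.45 and 5.41 at 48 h of salt. Reads of neighbouring genes with like sequence may be split between them by the counting, and this was not tested.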

How the data were processed

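RNA-seq libraries of lettuce were analysed from the deposited gene tables. Per the labels and the methods, the authors aligned reads with STAR 2.5.2 to the lettuce genome version 8 and counted them per gene with featureCounts, and the labels also list edgeR. The methods name the build without naming the libraries of PI 284702 and UC96US23. For Salinas the authors deposited a signal per gene, counts per 1000000 reads of a scaled library size. For PI 284702 and UC96US23 they deposited CPM. The design had assumed CPM for both, and the log-scale test was kept. Dividing each library by its value of 1 read gave whole reads for 100% of values (tolerance 0.05 reads), and these gave the depths and the values for edgeR 4.0.16. Replicates differed by more than counting noise, with a chi-square per gene between 3.6 and 73.7. A floor of 3 reads covers counting error only.

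Genes that reached 0.5 in 2 or more libraries of their table were tested with limma 3.58.1 in R 4.3.3 on log2(value + 0.5), with a trended prior and all groups of the table in the fit, and p-values were adjusted by Benjamini-Hochberg over all genes tested. A call needed a difference of at least 1 in size and an adjusted p no higher than 0.01. A difference on this scale understates the change of low genes. The script was checked on simulated data. The 150 genes, the lists and the comparisons were chosen with earlier results of these data known. Genes named by identifier were the first by rank, the largest called rise at 48 h of drought (which gave none) and the 2 largest cold falls at 24 h in both cultivars, by the cultivar with the smaller fall. Rank 21 and all genes cited by rank alone were chosen after their values were seen. None of the identifiers matched the reference gene table used here, so product lists and sequences were not used. Replicates are biological by the methods. No column of the tables was left unused. The alternatives were other pseudocounts (0.1 and 2), no filter, median-centred libraries, libraries brought to 1000000 reads, only the groups compared, a replicate block, edgeR, and leaving out each library in turn.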

Additional observations from a re-analysis of the deposited data

Results flagged for a closer look

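In 3 of the 149 genes tested in cold, the response of UC96US23 differed from that of PI 284702 by the test of the difference itself (limma, response in UC96US23 minus response in PI 284702). At 24 h, 1 of the 149 genes was called lower (0.671%) and none higher, against 0.384% and 0.277% of all genes. At 7 d, 2 were called lower (1.34%) and none higher, against 0.41% and 0.264%. Shares that rest on 1 and 2 genes do not set the 149 genes apart from all genes, and this was not tested. The 3 genes are thus described singly. The count at 24 h changed under 4 of 7 other settings and under 7 of 11 single libraries left out, and the count at 7 d under 2 of 7 and 8 of 11.

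The gene ranked 55 had the largest of these, at 7 d (-2.56 ± 0.29, adjusted p = 1.6e-05). In UC96US23 it had 44.3, 36.3 and 38.7 CPM at 7 d, against 28.2, 29.1 and 31.3 at 0 h. In PI 284702 it had 162, 315 and 208 CPM at 7 d, against 33.3 and 22.8 at 0 h. At 24 h it had 42.6, 39.2 and 37.9 CPM in UC96US23, above the 0 h libraries and overlapping those at 7 d, and 34.3, 23.7 and 29.0 in PI 284702, overlapping 0 h.

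The gene ranked 4 differed at 7 d by -1.65 ± 0.32 (adjusted p = 0.0063). In UC96US23 it had 32.7, 29.5 and 28.7 CPM at 7 d, against 19.4, 22.9 and 22.8 at 0 h. In PI 284702 it had 32.6, 46.0 and 32.2 CPM at 7 d, against 7.24 and 8.71 at 0 h, so the cultivars were apart at 0 h and overlapped at 7 d.

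The gene ranked 74 differed at 24 h by -1.54 ± 0.29 (adjusted p = 0.0053). In UC96US23 it had 0.595, 0.385 and 0.837 CPM at 24 h, against 1.66, 2.23 and 2.26 at 0 h. In PI 284702 it had 0.462, 0.943 and 0.590 CPM at 24 h, against 0.557 and 0.292 at 0 h. These levels are close to the pseudocount of 0.5.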

How the results depend on the processing

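The counts of salt against heat at both times and of salt against drought at 24 h stayed within 1.5 times of their value under every alternative. No gene named by identifier changed direction. With only the groups compared, the cold calls at 24 h in PI 284702 of ranks 1 and 71 and the call at 4 h in UC96US23 of rank 21 were lost, and with a pseudocount of 2 that call of rank 21 and the call at 7 d in UC96US23 of rank 71. The rise of rank 21 at 5 h of drought was lost without 5 of the 6 libraries in turn. With a pseudocount of 2, the genes called lower in heat than in drought at 24 h were 33, those lower in salt than in drought at 5 h 0, those that fell in drought 0 at 5 h, 3 at 24 h and 11 at 48 h, those that fell in cold 1, 5 and 7 in PI 284702 and 1, 2 and 4 in UC96US23 at 4 h, 24 h and 7 d, and those that rose in UC96US23 at 4 h 14. Over all 23231 genes, that pseudocount called 572 lower in heat than in drought at 24 h, in place of 987. It called 69 lower in salt than in drought at 5 h, in place of 152. In drought 18 fell at 5 h, 11 at 24 h and 155 at 48 h, in place of 55, 23 and 309. Over the 23443 genes tested in cold, 68, 477 and 506 fell in PI 284702, in place of 165, 897 and 912. In UC96US23, 229, 725 and 506 fell, in place of 546, 1395 and 963, and 654 rose at 4 h, in place of 1009. With a pseudocount of 0.1, 0 fell at 5 h of drought, against 35 of all 23231 genes, in place of 55. With only the groups compared, 7 rose at 5 h of drought and 0 fell at 24 h. Over all 23231 genes, 157 then rose at 5 h, in place of 126, and 1 fell at 24 h, in place of 23. The 0 at 24 h thus could not set the 150 genes apart from all genes. In cold with that fit, 10, 18 and 15 rose and 1, 4 and 6 fell in PI 284702 at 4 h, 24 h and 7 d. In UC96US23 9 rose and 1 fell at 4 h and 6 fell at 7 d. Over all 23443 genes, 519, 1073 and 1181 rose and 55, 388 and 696 fell in PI 284702. Over all genes in UC96US23, 470 rose and 100 fell at 4 h and 767 fell at 7 d. With edgeR, 1 fell at 5 h and 3 at 24 h of drought, and 1 rose at 48 h. Over all genes edgeR called 45, 14 and 526 there, beside 55, 23 and 439 by limma. The cultivar difference at 24 h was called in 0 genes with a pseudocount of 0.1 or 2, with only the groups compared and with edgeR, and at 7 d in 1 gene with no filter and with edgeR. Over all genes, 60, 87, 75 and 36 were called lower at 24 h in these settings, beside 90 in the main fit. At 7 d 94 and 50 were called lower, beside 96. Of the 150 genes, 97 still met the limits with a pseudocount of 2. Fewer samples enter the fit of only the groups compared, and the cause of the other shifts was not tested.

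Replicate numbers did not pair the Salinas libraries: same-numbered libraries correlated between -0.28 and 0.32 in their deviations, with 17% of pairs over 0.1, and 22.6% of differently numbered pairs. In the cold table these shares were 20.8% and 8.44%. With the replicate number as a block, 1 gene fell at 5 h of drought, and every other count stayed within 1.5 times, such as 147 genes higher in salt than in heat at 24 h. Over all genes 50 fell at 5 h of drought with that block, in place of 55.

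With single libraries left out, between 0 and 1 gene was higher in heat than in drought at 24 h, between 1 and 4 rose and between 0 and 1 fell at 5 h of drought, between 0 and 4 fell at 24 h, and between 0 and 1 rose and 16 and 23 fell at 48 h. Against drought at 24 h, between 0 and 1 fell at 48 h. In cold, between 1 and 2 fell at 4 h in PI 284702, and in UC96US23 between 1 and 3 at 4 h, 5 and 10 at 24 h and 7 and 12 at 7 d. The cultivar difference was called lower in between 0 and 2 genes at 24 h, and lower in between 1 and 3 and higher in between 0 and 1 at 7 d. Counts over all genes with single libraries left out are not given here.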
